A study of Mus musculus with 8 samples.

Results

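Hyaluronan is a long sugar polymer of the extracellular matrix, and versican is a large chondroitin sulfate proteoglycan that binds to it. Described here are 8 mouse genes of this matrix system in cardiac fibroblasts: the hyaluronan synthases Has1, Has2 and Has3, the proteoglycan gene Vcan, the hyaluronan-modifying protein gene Tnfaip6, the receptor gene Cd44, and the hyaluronidases Hyal1 and Hyal2. They were taken by gene symbol from both deposited count tables. All 8 were found, each as a single entry among 34399 symbols, and all 8 passed the filter on low counts in every comparison. On GRCm38 the synthase genes lie apart, Has1 at chr17:17843323-17855205 (minus strand), Has2 at chr15:56665627-56694539 (minus) and Has3 at chr8:106870242-106884566 (plus). Vcan lies at chr13:89655312-89742509 (minus), Tnfaip6 at chr2:52038009-52056686 (plus) and Cd44 at chr2:102811141-102901665 (minus). Hyal2 at chr9:107567945-107572779 (plus) and Hyal1 at chr9:107576927-107581710 (plus) are neighbours.

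Hyaluronan is made at the plasma membrane by the synthases and extruded as it grows. Versican and link proteins bind to the chains in a hydrated pericellular coat, Tnfaip6 transfers heavy chains of inter-alpha-inhibitors onto them, and CD44 anchors the coat to the cell. Hyaluronidases and cell-surface enzymes cut the polymer, and proteases of the ADAMTS family cut versican. In the injured heart this provisional matrix is known to form before and alongside the collagen scar, and TGF-beta is a known inducer of several of its genes in cultured fibroblasts.

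RNA was sequenced from sorted GFP-positive fibroblasts of the ventricles of mice. All mice had undergone transverse aortic constriction (TAC), a narrowing of the aorta that loads the heart with pressure, 4 weeks earlier, and there was no unoperated group. The 4 groups had 2 libraries each: Smad2/3 double knockout (DKO, HK15 and HK16), Postn-Cre control (HK3 and HK4), Tgfbr1/2 DKO (HK2 and HK4) and Tcf21-Cre control (HK6 and HK7). HK4 names a different library in each of the groups where it occurs. Mice of all groups carried a tamoxifen-dependent Cre (MerCreMer) knocked into Postn or Tcf21 and the R26eGFP reporter, were 8 to 10 weeks old at surgery, and received tamoxifen at 100 mg/kg by injection on 2 days and then in chow at 40 mg/kg. The Smad2/3 DKO added loxP-targeted Smad2 and Smad3 to Postn-MerCreMer, and the Tgfbr1/2 DKO added loxP-targeted Tgfbr1 and Tgfbr2 to Tcf21-MerCreMer. Control cells were Cre-positive and GFP-positive, and the labels do not say whether they carried any loxP-targeted allele. Postn-MerCreMer acts in cells that have switched on Postn, a gene of activated fibroblasts, and Tcf21-MerCreMer in resident fibroblasts, so the groups of each pair share a driver and the pairs differ in it. The labels do not say how many animals stand behind a library, so p-values measure the spread between these libraries only.

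Library totals were 21477646 to 32594474 counts, with each pair of groups in its own sequencing run. Levels below are counts per 1000000 counts of the library total (CPM). The 8 fibroblast markers summed to 15480 to 38470 CPM, and Dcn, the decorin gene, was at 8965 to 15430 CPM in all 8 libraries. Total counts of the targeted genes gave no check of the knockouts, because the deleted exons are not stated and the remaining exons are counted. Smad2 was at 84.5 and 78.2 CPM in Smad2/3 DKO libraries, against 95.4 and 82.3 CPM in Postn-Cre control libraries. For Smad3 the levels were 70.5 and 109.0 CPM in the DKO libraries, against 113.8 and 92.7 CPM in their controls. Tgfbr1 was at 181.4 and 192.6 CPM in Tgfbr1/2 DKO libraries, against 229.3 and 237.9 CPM in Tcf21-Cre control libraries, and Tgfbr2 at 470.7 and 406.2 CPM, against 370.1 and 406.2 CPM. None of these differences passed the test. Postn itself was at 207.9 and 185.5 CPM in Postn-Cre control libraries, against 1615 and 3076 CPM in Tcf21-Cre control libraries (log2 −3.30 ± 0.32, adjusted p = 9.09e-05 by edgeR). Tcf21 was at 26.2 and 25.6 CPM in Postn-Cre control libraries, against 162.6 and 111.4 CPM in Tcf21-Cre control libraries (log2 −2.10 ± 0.21, adjusted p = 9.42e-05 by edgeR). These control groups also differ in sequencing run. Counts are per gene, so the splice forms of Vcan and Cd44 are not told apart.

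The promoters of Vcan, Cd44 and Tnfaip6 are shown because these genes had lower levels together in the Smad2/3 DKO libraries and higher levels together in the Postn-Cre control than in the Tcf21-Cre control libraries. The sequences are from RefSeq (GRCm38.p6) and run 5′ to 3′ up to the RefSeq start of the gene, except that the Tnfaip6 stretch stops before the start annotated by GENCODE. Of the 8 genes, 6 were found in that table, and for 5 of these the stretch held bases outside the gene as GENCODE annotates it, Hyal2 being the exception. Has2 and Has3 are named only. The stretches are chr13:89742513-89742762 on the minus strand for Vcan, chr2:102901666-102901915 on the minus strand for Cd44 and chr2:52037863-52038008 on the plus strand for Tnfaip6. Capitals mark matches, on either strand, to CAGAC (the Smad-binding element, GTCTG on the other strand), TGANTCA (the AP-1 element, its own reverse complement), TATAAA or GGGCGG (the GC box). No marked matches overlap.
Vcan: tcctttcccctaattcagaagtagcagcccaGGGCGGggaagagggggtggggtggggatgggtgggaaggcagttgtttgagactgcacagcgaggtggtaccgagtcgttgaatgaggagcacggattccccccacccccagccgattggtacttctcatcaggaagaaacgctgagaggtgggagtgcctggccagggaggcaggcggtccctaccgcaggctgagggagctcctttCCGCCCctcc
Cd44: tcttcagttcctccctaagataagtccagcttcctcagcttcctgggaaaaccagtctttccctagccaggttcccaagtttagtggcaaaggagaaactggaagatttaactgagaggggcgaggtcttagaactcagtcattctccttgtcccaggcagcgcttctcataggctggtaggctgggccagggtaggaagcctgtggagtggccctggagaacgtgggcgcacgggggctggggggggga
Tnfaip6: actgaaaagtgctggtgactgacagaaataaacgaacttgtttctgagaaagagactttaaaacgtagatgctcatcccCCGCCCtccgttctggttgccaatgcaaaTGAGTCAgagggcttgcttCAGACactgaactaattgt
Within the 250 bases before the RefSeq start, Vcan had 2 GGGCGG matches, starting 219 and 10 bases before it. Tnfaip6 had 1 match to GGGCGG, starting 171 bases before the start. It also had 1 match to TGANTCA at 142 bases and 1 to CAGAC at 123 bases before the start. Cd44 had no match to any of the 4 motifs. Of the other members, Has1 had 2 CAGAC matches, Hyal1 had 1 CAGAC and 2 overlapping GGGCGG matches, and Hyal2 had 1 GGGCGG match. Among 32817 promoter stretches of the same length, 42.2% held CAGAC, 6.75% TGANTCA, 12.4% TATAAA and 32.7% GGGCGG. These matches describe the letters in these windows and no binding was measured.

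**Figure D1:**
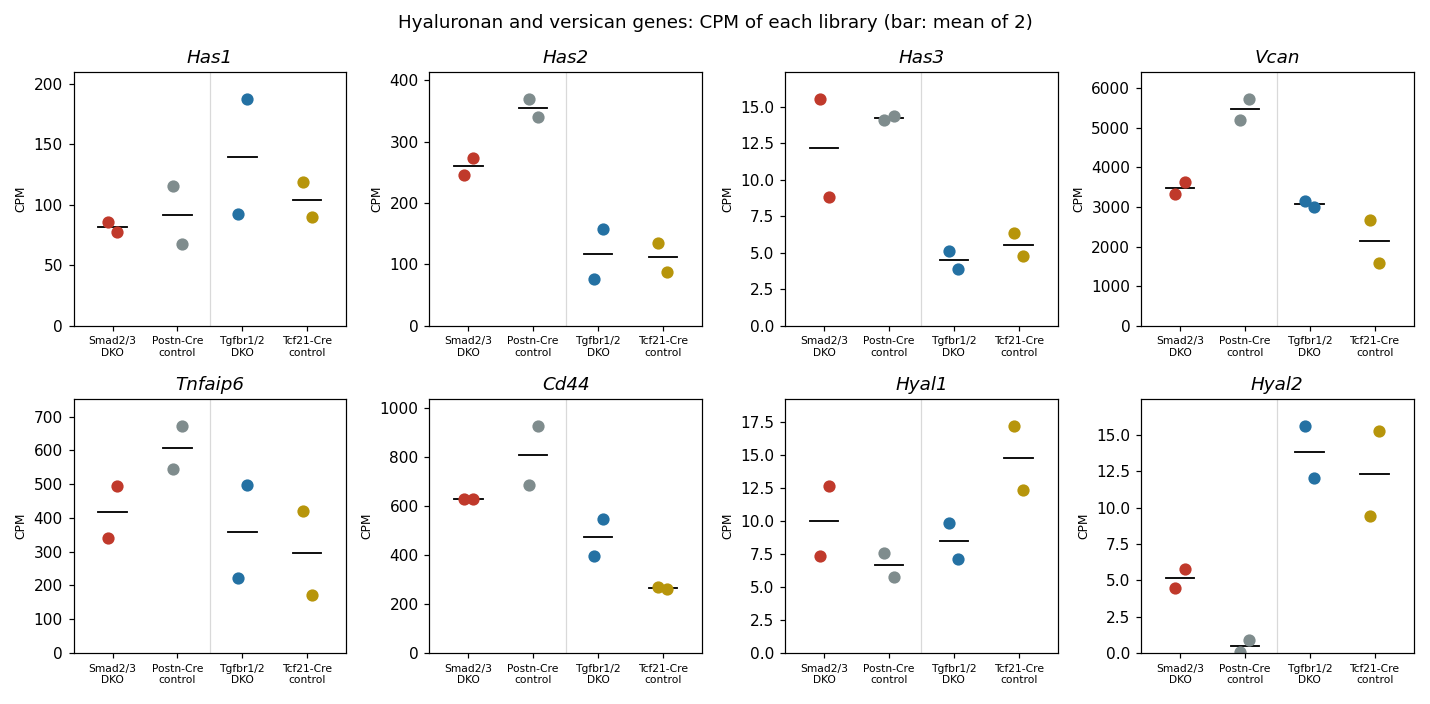
CPM of each of the 8 genes (vertical axes, linear from 0) in each library, with the 4 groups along the horizontal axis. Points are libraries and the black bar is the mean of the 2 libraries of a group. Vcan lies at 3328 and 3638 CPM in Smad2/3 DKO libraries, below 5199 and 5721 CPM in their controls, while Cd44 lies at 396.8 and 547.2 CPM in Tgfbr1/2 DKO libraries, above 269.1 and 262.1 CPM in theirs.

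The loss of Smad2/3 in Postn-lineage fibroblasts went with a fall of Vcan, the only member that passed the test in that comparison. Has2, Tnfaip6 and Cd44 also had lower levels in both knockout libraries than in either control library, without passing. Hyal2 was barely counted in the control libraries and was counted in both knockout libraries. Has1, Has3 and Hyal1 overlapped between the groups.

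Vcan had 3328 and 3638 CPM in Smad2/3 DKO libraries, against 5199 and 5721 CPM in Postn-Cre control libraries. It was thus lower in both knockout libraries, and the gap between the groups was wider than the spread within them. The fitted log2 fold change was −0.71 ± 0.13 (SE, n = 2 each), a level 0.613 times that of the control, with an adjusted p of 0.0318 by the edgeR quasi-likelihood test with Benjamini-Hochberg adjustment over the 15760 genes tested. Adjusted p values below are from the same test over all genes tested in each comparison, except where DESeq2 is named. The adjusted p was 0.258 without Smad2/3 DKO HK15, 0.0801 without Smad2/3 DKO HK16 and 0.150 with all 8 libraries in the fit. The log2 fold change stayed between −0.78 and −0.63 when either knockout library was left out. In the authors' deposited table the log2 fold change of Vcan is −0.648.

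Has2, the main inducible synthase of fibroblasts, had 245.4 and 273.9 CPM in Smad2/3 DKO libraries, against 369.1 and 339.2 CPM in Postn-Cre control libraries. The groups did not overlap, and the log2 fold change was −0.51 ± 0.15 with an adjusted p of 0.148. Has1 had 85.7 and 77.5 CPM in Smad2/3 DKO libraries, inside the control libraries' 115.3 and 67.3 CPM (log2 −0.22 ± 0.25, adjusted p = 0.777). Has3 had 15.5 and 8.80 CPM in Smad2/3 DKO libraries, on both sides of the control libraries' 14.1 and 14.4 CPM (log2 −0.28 ± 0.37, adjusted p = 0.822). Has1 and Has3 thus differed by less than the spread between libraries, and both changed sign when 1 library was left out.

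Tnfaip6, also called TSG-6, had 339.6 and 495.5 CPM in Smad2/3 DKO libraries, against 543.4 and 671.1 CPM in Postn-Cre control libraries. Its groups did not overlap, and the log2 fold change of −0.60 ± 0.19 had an adjusted p of 0.181. The adjusted p was 0.0134 with no filter on low counts, 0.0668 with DESeq2 and 0.515 with all 8 libraries in the fit. The log2 fold change was −0.34 without Smad2/3 DKO HK15 and −0.91 without Smad2/3 DKO HK16. Cd44 had 626.7 and 627.6 CPM in Smad2/3 DKO libraries, against 687.0 and 924.2 CPM in Postn-Cre control libraries. The gap is narrow beside the distance between the controls, and the log2 fold change was −0.42 ± 0.16 with an adjusted p of 0.277. It was −0.20 without Postn-Cre control HK4, the library with the higher level.

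Hyal2, a hyaluronidase attached to the cell surface, had 115 and 124 counts in Smad2/3 DKO libraries, against 2 and 20 counts in Postn-Cre control libraries. These were 4.51 and 5.77 CPM, against 0.0769 and 0.87 CPM. Both knockout libraries were higher, and the control libraries lay far apart on a ratio scale. The log2 fold change was 3.40 ± 0.94 with a 95% interval of 1.33 to 5.46 and an adjusted p of 0.115. It was called with DESeq2 (adjusted p = 0.00881), with no filter on low counts (0.00219), with all 8 libraries in the fit (0.0481) and without Postn-Cre control HK4 (log2 5.90, 0.00695). It was 2.52 with an adjusted p of 0.185 without Postn-Cre control HK3, and the adjusted p was 0.223 without Smad2/3 DKO HK15 and 0.266 without Smad2/3 DKO HK16. The authors' deposited table gives a log2 fold change of 1.43 for Hyal2, from log2 values that are floored. Hyal1, the lysosomal enzyme, had 7.33 and 12.6 CPM in Smad2/3 DKO libraries, against 7.54 and 5.74 CPM in Postn-Cre control libraries, and the groups overlapped (log2 0.53 ± 0.44, adjusted p = 0.672). Hyal1 shares 1920 exon bases with Nat6 on the same strand and 159 with Hyal3, and the library kit does not mark strand, so its counts are uncertain. The same holds for Has2, which shares 182 exon bases with Has2as on the opposite strand, and for Has3, which shares 352 with Chtf8.

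Thus 1 of the 8 genes was called, lower, against a background of 0.844% of 15760 tested genes called lower, 0.451% called higher and 1.29% called in either direction. Of all calls, 34.8% were higher with the usual scaling and 45.9% with library totals alone. In CPM, 4 of the 8 genes were lower and 1 was higher without overlap between the groups, and 44.4% of all tested genes did not overlap in either direction, so this count is near the background. The median log2 fold change of the 8 genes was −0.35, against 0.01 over all tested genes. Fewer cells of a kind and less RNA per cell cannot be told apart in these bulk libraries. The summed fibroblast markers were 15730 and 15480 CPM in Smad2/3 DKO libraries, against 23780 and 20860 CPM in Postn-Cre control libraries. Of the 8, 3 were called lower (Col1a1, Col1a2 and Col3a1). Lum (log2 −0.65) and Ddr2 (−0.54) were lower without passing. The list did not fall as a whole, as Dcn (0.03) and Pdgfra (0.04) overlapped between the groups and Tcf21 was higher (0.37, adjusted p = 0.589). Endothelial markers summed to 216.8 and 140.5 CPM in Smad2/3 DKO libraries, against 432.7 and 229.8 CPM in Postn-Cre control libraries, with none of 8 called (5 at an unadjusted p below 0.05, 1 by DESeq2). The part of these other differences in the values above was not tested.

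The loss of Tgfbr1/2 in Tcf21-lineage fibroblasts went with no call among the 8 genes by the edgeR test, while 3 had an unadjusted p below 0.05 and DESeq2 called 1, Cd44. Over all genes, 3332 of 16658 tested had an unadjusted p below 0.05, and DESeq2 called 1134. Cd44 and Vcan had higher levels in both knockout libraries than in either control library, and Hyal1 had lower levels in both. The synthases, Tnfaip6 and Hyal2 overlapped between the groups.

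Cd44 had 396.8 and 547.2 CPM in Tgfbr1/2 DKO libraries, against 269.1 and 262.1 CPM in Tcf21-Cre control libraries. Both knockout libraries lay above controls that were close together. The log2 fold change was 0.92 ± 0.23 (SE, n = 2 each), or 1.9 times the control level, with a 95% interval of 0.40 to 1.44 and an adjusted p of 0.0572. Cd44 passed with DESeq2 (adjusted p = 0.00793), with no filter on low counts (0.00606), with the trend of each library with GC content removed (0.0481) and without Tgfbr1/2 DKO HK2 (log2 1.204, 0.0289). It was 0.60 with an adjusted p of 0.364 without Tgfbr1/2 DKO HK4, and the adjusted p was 0.178 and 0.145 without Tcf21-Cre control HK6 or HK7. In the authors' deposited table its log2 fold change is 0.811.

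CD44 is also a surface protein of leukocytes, and the myeloid markers, though not all of them, were higher in the same libraries. They summed to 183.4 and 206.2 CPM in Tgfbr1/2 DKO libraries, against 57.7 and 79.0 CPM in Tcf21-Cre control libraries, with 5 of 9 called higher (Csf1r, Emr1, Itgam, Cd14 and Cd74). Most of that sum was Lyz2 (82.5 and 90.6 CPM in Tgfbr1/2 DKO libraries, against 9.90 and 26.6 CPM, adjusted p = 0.103) and Cd74 (43.7 and 57.1 CPM, against 12.7 and 22.2 CPM). Ptprc, the pan-leukocyte marker, was at 1.69 and 2.07 CPM in Tgfbr1/2 DKO libraries, against 1.27 and 0.89 CPM in Tcf21-Cre control libraries. Epicardial and mesothelial markers summed to 395.7 and 423.0 CPM in Tgfbr1/2 DKO libraries, against 51.8 and 18.6 CPM in Tcf21-Cre control libraries, nearly all of it Aldh1a2, a retinoic acid enzyme, with 2 of 5 tested called higher (Aldh1a2 and Lrrn4). The other 7 were low. Lrrn4 was at 1.78 and 0.802 CPM in Tgfbr1/2 DKO libraries and at 0 in both control libraries. Msln was at 1.35 and 0.468 CPM in Tgfbr1/2 DKO libraries, against 0.0685 and 0.137 CPM in Tcf21-Cre control libraries, and Upk3b at 3.59 and 0.902 CPM, against 0.754 and 0.342 CPM. Wt1 ran the other way, at 0.982 and 0.668 CPM in Tgfbr1/2 DKO libraries, against 1.61 and 1.54 CPM in Tcf21-Cre control libraries. Msln, Upk3b and Wt1 did not pass the test, and Krt8, Krt19 and Upk1b, at 0.307 CPM or less in these 4 libraries, were not tested. Endothelial markers summed to 520.3 and 497.3 CPM in Tgfbr1/2 DKO libraries, against 435.8 and 391.3 CPM in Tcf21-Cre control libraries. Eng was called higher (310.5 and 279.1 CPM, against 189.7 and 172.2 CPM, adjusted p = 0.0423). The median log2 fold change of the 8 was 0.68, and 5 had an unadjusted p below 0.05. Of these 5, Tek was lower (88.05 and 81.81 CPM, against 163.3 and 123.6 CPM, log2 −0.67, adjusted p = 0.0772). DESeq2 called 2 of the endothelial markers higher and 1 lower. The part of these markers in the Cd44 difference was not tested.

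Vcan had 3138 and 3010 CPM in Tgfbr1/2 DKO libraries, against 2673 and 1597 CPM in Tcf21-Cre control libraries. The knockout libraries were close together and above both controls, which themselves lay far apart. The log2 fold change was 0.62 ± 0.26 with an adjusted p of 0.223, and it was 0.34 without Tcf21-Cre control HK7. Hyal1 had 9.85 and 7.08 CPM in Tgfbr1/2 DKO libraries, against 17.2 and 12.3 CPM in Tcf21-Cre control libraries (log2 −0.72 ± 0.28, adjusted p = 0.181). Nat6, with which it shares exons, had 15.6 and 10.1 CPM in Tgfbr1/2 DKO libraries, against 18.4 and 15.2 CPM in Tcf21-Cre control libraries.

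Has1, Has2 and Tnfaip6 were each highest in Tgfbr1/2 DKO HK4 among the libraries of this run. Has2 had 75.4 and 157.3 CPM in Tgfbr1/2 DKO libraries, against 134.6 and 87.9 CPM in Tcf21-Cre control libraries (log2 0.18 ± 0.42, adjusted p = 0.862). Has1 had 92.4 and 187.5 CPM in Tgfbr1/2 DKO libraries, against 118.9 and 89.8 CPM in Tcf21-Cre control libraries (log2 0.54 ± 0.38, adjusted p = 0.502). Tnfaip6 had 221.6 and 496.1 CPM in Tgfbr1/2 DKO libraries, against 419.0 and 171.4 CPM in Tcf21-Cre control libraries (log2 0.41 ± 0.62, adjusted p = 0.780). All 3 log2 values were below 0 without Tgfbr1/2 DKO HK4, those of Has2 and Tnfaip6 also without Tcf21-Cre control HK7, and the knockout libraries of each lay further apart than the group means. Has3 had 5.12 and 3.88 CPM in Tgfbr1/2 DKO libraries, against 6.34 and 4.76 CPM in Tcf21-Cre control libraries (log2 −0.22 ± 0.34, adjusted p = 0.773). Hyal2 had 15.6 and 12.0 CPM in Tgfbr1/2 DKO libraries, against 9.42 and 15.3 CPM in Tcf21-Cre control libraries (log2 0.22 ± 0.30, adjusted p = 0.736). The background of this comparison was 3.96% of 16658 tested genes called, 2.64% higher and 1.31% lower. In CPM, 2 of the 8 genes were higher and 1 was lower without overlap, against 51.2% of all tested genes without overlap. The median log2 fold change of the 8 genes was 0.32, against −0.01 over all tested genes.

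**Figure D2:**
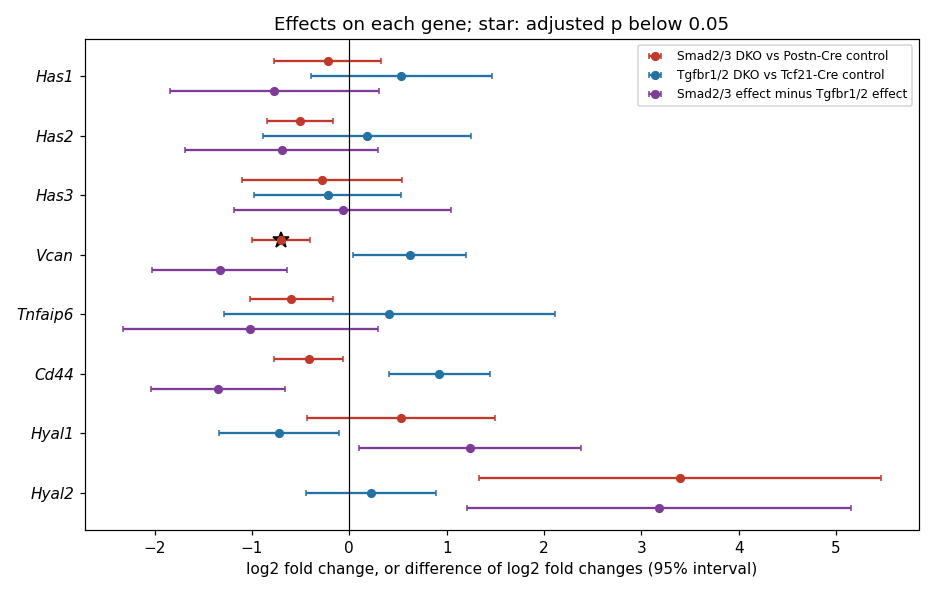
Log2 fold changes (points) with 95% intervals (bars) of the 8 genes, one row per gene, for the Smad2/3 DKO comparison, the Tgfbr1/2 DKO comparison and the difference between these effects. The star marks Vcan in the Smad2/3 comparison, the only value with an adjusted p below 0.05. Vcan and Cd44 lie left of 0 in the Smad2/3 comparison and right of 0 in the Tgfbr1/2 comparison. So do Has1, Has2 and Tnfaip6, while Hyal1 lies the other way round.

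Vcan and Cd44 had opposite signs in the comparisons, without overlap between the groups in either. Has1, Has2, Tnfaip6 and Hyal1 also had opposite signs, but their groups overlapped in at least 1 of the comparisons. The difference between the effects was tested as an interaction over all 8 libraries. The Smad2/3 effect minus the Tgfbr1/2 effect was −1.33 ± 0.32 on the log2 scale for Vcan (95% interval −2.03 to −0.64, adjusted p = 0.0633) and −1.35 ± 0.31 for Cd44 (−2.04 to −0.66, adjusted p = 0.0577). Neither passed the threshold. Both were called with DESeq2 (0.00138 for Vcan and 0.00213 for Cd44), with no filter on low counts, and with the GC trend removed (0.0397 and 0.0476). Without single libraries the adjusted p ran from 0.0183 (without Tcf21-Cre control HK6) to 0.160 for Vcan and from 0.0313 (without Tgfbr1/2 DKO HK2) to 0.182 for Cd44, and each was below the threshold in 1 of 8 cases. For Hyal2 the difference was 3.18 ± 0.90 (adjusted p = 0.103, and 0.00449 with DESeq2), for Hyal1 1.24 ± 0.52 (0.249) and for Tnfaip6 −1.02 ± 0.60 (0.419). For Has1 it was −0.77 ± 0.49, for Has2 −0.70 ± 0.45 and for Has3 −0.07 ± 0.50, with adjusted p of 0.459 to 0.970. None of the 8 genes was thus called by edgeR, against a background of 1.83% of 17770 tested genes. An unadjusted p below 0.05 was found for 4 of the 8, against 3092 of the 17770 tested genes. DESeq2 called 3 of the 8, and 1146 genes in all. Of the edgeR calls over all genes, 36.2% were positive, and 49.7% with library totals alone. Run, driver and targeted genes differ together between the comparisons and cannot be told apart.

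The Postn-Cre control was also set against the Tcf21-Cre control, where lineage, driver and sequencing run differ together and cannot be told apart. Has2, Cd44, Vcan, Has3 and Tnfaip6 were higher in the Postn-Cre control libraries and Hyal2 was lower. Of the 8 genes 6 were called, against a background of 34.9% of 17770 tested genes, and 7 did not overlap in CPM, against 69.7% of all tested genes. Has2 had 369.1 and 339.2 CPM in Postn-Cre control libraries, against 134.6 and 87.9 CPM in Tcf21-Cre control libraries, a log2 difference of 1.97 ± 0.33 (adjusted p = 0.00106). Cd44 differed by 1.89 ± 0.23 on that scale (0.000205), Vcan by 1.66 ± 0.23 (0.000397), Has3 by 1.65 ± 0.36 (0.00499) and Tnfaip6 by 1.35 ± 0.43 (0.0304). Hyal2 had 0.0769 and 0.87 CPM in Postn-Cre control libraries, against 9.42 and 15.3 CPM in Tcf21-Cre control libraries, a log2 difference of −4.46 ± 0.71 (0.000851). Hyal1 was at 7.54 and 5.74 CPM in Postn-Cre control libraries, against 17.2 and 12.3 CPM in Tcf21-Cre control libraries (log2 −0.85 ± 0.37, 0.0965). Has1 stood apart from the other synthases with 115.3 and 67.3 CPM in Postn-Cre control libraries, against 118.9 and 89.8 CPM in Tcf21-Cre control libraries (0.11 ± 0.34, 0.833, and below 0 with library totals alone).

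The control difference moved with the GC content of the transcripts across all genes. Its median log2 value was 0.63 among genes whose longest transcript had 28.1% to 41.3% GC and −1.39 among those with 57.6% to 73.7%. In the Smad2/3 comparison the medians of these same classes were 0.00 and 0.04, and in the Tgfbr1/2 comparison −0.16 and 0.16. Has2 (40.6% GC), Tnfaip6 (41.1%), Vcan (43.7%) and Cd44 (44.5%) were the members with the lowest GC content, and Hyal1 (52.8%) and Hyal2 (55.2%) those with the highest. With the trend of each library with GC content removed, 5 of the 8 genes were called. The control difference was then 1.53 for Has2, 1.62 for Cd44, 1.34 for Vcan, 1.77 for Has3 and −3.56 for Hyal2, all with an adjusted p below the threshold. Tnfaip6 dropped to 0.93 (adjusted p = 0.121), and its call was also lost with library totals alone, with DESeq2 and without any of 5 libraries. The call for Has3 was lost without Tcf21-Cre control HK7 (0.0534). In the Smad2/3 comparison Vcan was at −0.71 (0.0217) with the GC trend removed.

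**Figure D3:**
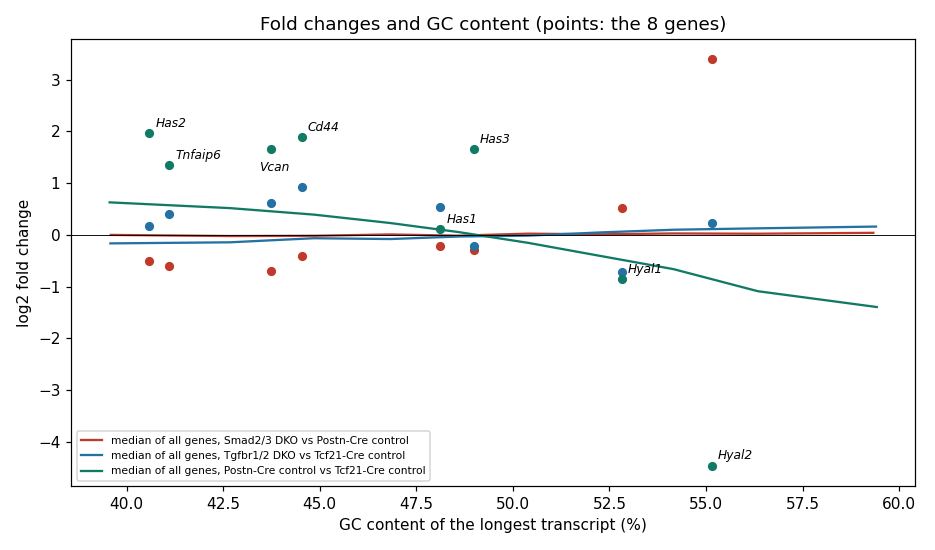
Log2 fold change (vertical axis) against GC content of the longest transcript in percent (horizontal axis). Lines are medians of all tested genes in 10 classes of GC content and points are the 8 genes, coloured by comparison, with names beside the points of the control comparison. The line of the control comparison runs from 0.63 at low to −1.39 at high GC content, while the lines of the knockout comparisons lie between −0.16 and 0.16.

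The members also differed in level, here per kilobase of exon (CPM per kb), the scale on which genes can be compared. Vcan was at 110 to 396 CPM per kb over the 8 libraries, Tnfaip6 at 100.2 to 393 and Cd44 at 38.7 to 136. Has2 was at 17.8 to 87.1 CPM per kb and Has1 at 14.9 to 41.5. Has3, Hyal1 and Hyal2 were at 4.73 CPM per kb or less in every library. The composition of the synthases differed between the runs, which also differ in driver and lineage. Has1 had 48.1% GC and Has2 40.6%, and the part of the GC trend in these shares was not tested. Has2 held 73.0% and 77.7% of the summed level of the 3 synthases in Smad2/3 DKO libraries and 75.9% and 82.4% in Postn-Cre control libraries. It held 45.6% and 46.9% in Tgfbr1/2 DKO libraries and 53.8% and 50.2% in Tcf21-Cre control libraries. Has1 held most of the remainder, and Has3 held 3.06% or less in every library.

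**Figure D4:**
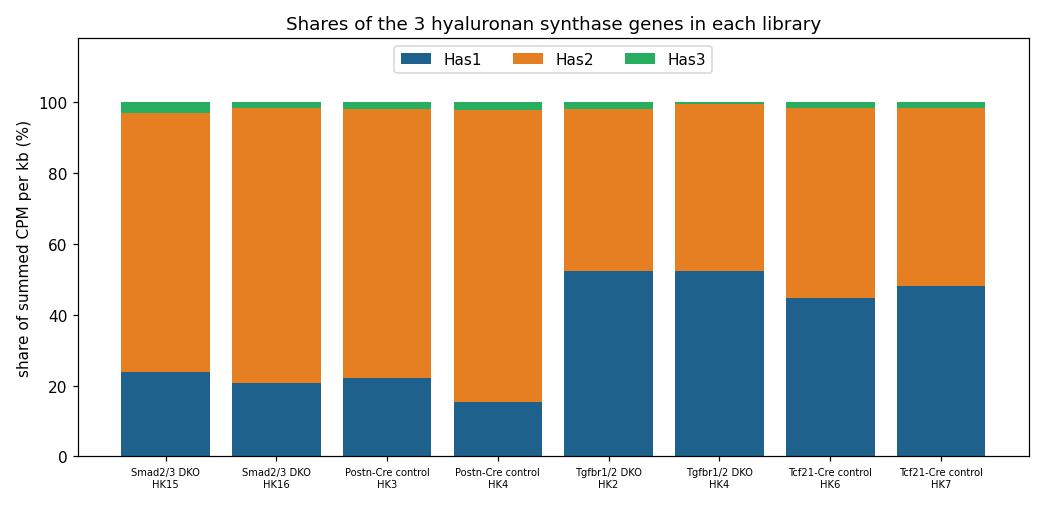
Share of Has1, Has2 and Has3 in their summed CPM per kb (stacked bars, percent, from 0) in each of the 8 libraries. Has2 makes up 73.0% to 82.4% of the sum in the libraries with Postn-Cre and 45.6% to 53.8% in those with Tcf21-Cre. Driver, lineage and sequencing run differ together between these libraries.

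In order of group means, Vcan and Cd44 ran from the Smad2/3 pair to the Tgfbr1/2 pair, with the Postn-Cre control highest and the Tcf21-Cre control lowest. For Vcan the neighbours Smad2/3 DKO (3328 and 3638 CPM) and Tgfbr1/2 DKO (3138 and 3010 CPM) were close, and for Cd44 the Smad2/3 DKO (626.7 and 627.6 CPM) lay above the Tgfbr1/2 DKO (396.8 and 547.2 CPM). For Has2 the Tgfbr1/2 DKO and the Tcf21-Cre control, at the low end, did not differ beyond their spread. For Hyal2 the Tgfbr1/2 DKO and the Tcf21-Cre control, at the high end, overlapped, and the Postn-Cre control was lowest.

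Genes that surround these members in the pathway were followed in 7 lists. Hyaluronan precursor enzymes supply its sugar nucleotides, and none of the 11 tested was called in the Smad2/3 comparison (2 at an unadjusted p below 0.05, 1 by DESeq2) or in the Tgfbr1/2 comparison (3 at an unadjusted p below 0.05, 0 by DESeq2). Gfpt2, an isoform of the rate-limiting hexosamine enzyme, had 3263 and 3204 CPM in Smad2/3 DKO libraries, against 2902 and 2597 CPM in Postn-Cre control libraries (adjusted p = 0.644). Ugdh, which makes UDP-glucuronate, had 1125 and 1429 CPM in Smad2/3 DKO libraries, against 1127 and 1196 CPM in Postn-Cre control libraries (adjusted p = 0.892). In the Tgfbr1/2 comparison Gfpt2 had 922.2 and 1418 CPM in DKO libraries, against 1180 and 753.9 CPM in control libraries, and Ugdh 395.1 and 550.7 CPM, against 648.1 and 420.6 CPM. Of the 6 tested genes of hyaluronan breakdown none was called in either comparison (1 at an unadjusted p below 0.05 in each, 1 by DESeq2 for Smad2/3 and 0 for Tgfbr1/2). Tmem2, a cell-surface hyaluronidase, had 99.3 and 113.5 CPM in Smad2/3 DKO libraries, against 162.9 and 178.3 CPM in Postn-Cre control libraries (adjusted p = 0.0688).

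Among 7 hyaluronan receptors and sensors, 3 rose in the Tgfbr1/2 DKO, against 2.64% of all tested genes called higher. Layn, the layilin gene, had 93.8 and 102.9 CPM in Tgfbr1/2 DKO libraries, against 57.9 and 40.5 CPM in Tcf21-Cre control libraries (log2 1.09 ± 0.21, adjusted p = 0.0205). Lyve1, of lymphatic endothelium and tissue macrophages, had 8.498 and 9.02 CPM in Tgfbr1/2 DKO libraries, against 2.02 and 2.94 CPM in Tcf21-Cre control libraries (1.89 ± 0.36, 0.0212). Stab1, a scavenger receptor of the same cells, had 10.6 and 9.29 CPM in Tgfbr1/2 DKO libraries, against 4.93 and 3.66 CPM in Tcf21-Cre control libraries (1.29 ± 0.31, 0.0446). The call of Stab1 was lost without any of the 4 libraries, that of Lyve1 without Tcf21-Cre control HK6 or Tgfbr1/2 DKO HK4, and that of Layn without Tcf21-Cre control HK7 or Tgfbr1/2 DKO HK4, with adjusted p of up to 0.155. Stab1 also lost its call with library totals alone, with no robust estimation and with the GC trend removed, and both Stab1 and Lyve1 lost theirs with all 8 libraries in the fit. Lyve1 and Stab1 rose in the libraries where the sums of the myeloid and endothelial markers above were higher, and the part of those markers was not tested. None of the 7 was called in the Smad2/3 comparison (1 at an unadjusted p below 0.05, 1 by DESeq2), where Layn had 91.2 and 100.4 CPM in DKO libraries, against 145.0 and 154.4 CPM in control libraries (adjusted p = 0.0797). Tlr4, the most abundant sensor beside Layn, had 69.8 and 83.1 CPM in Smad2/3 DKO libraries, against 70.9 and 84.7 CPM in Postn-Cre control libraries. The difference between the effects on Layn was −1.80 ± 0.27 (adjusted p = 0.0118), and it stayed below the threshold without any of the 8 libraries.

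Of 11 tested genes of hyaluronan-matrix linkers, Itih5 fell in both knockouts. Itih5, an inter-alpha-inhibitor heavy chain gene, had 496.8 and 481.2 CPM in Smad2/3 DKO libraries, against 875.1 and 832.2 CPM in Postn-Cre control libraries (log2 −0.86 ± 0.14, adjusted p = 0.0132). It had 379.8 and 406.2 CPM in Tgfbr1/2 DKO libraries, against 938.9 and 1104 CPM in Tcf21-Cre control libraries (−1.30 ± 0.22, 0.0142). Neither pair of groups overlapped. The call in the Smad2/3 comparison was lost without either DKO library or with all 8 libraries in the fit, and that in the Tgfbr1/2 comparison without Tcf21-Cre control HK7 or Tgfbr1/2 DKO HK2, with adjusted p of up to 0.0966. The difference between its effects was 0.43 ± 0.26 (adjusted p = 0.437). Hapln1, the link protein gene, fell in the Tgfbr1/2 DKO, with 0.675 and 0.635 CPM in DKO libraries, against 5.45 and 2.46 CPM in control libraries (−2.49 ± 0.54, 0.0313). That call was lost without Tcf21-Cre control HK6, Tgfbr1/2 DKO HK2 or Tgfbr1/2 DKO HK4, with adjusted p of up to 0.168, and also with no robust estimation and with all 8 libraries in the fit. Ptx3, whose product cross-links hyaluronan coats, had 734.9 and 820.2 CPM in Smad2/3 DKO libraries, against 833.8 and 967.3 CPM in Postn-Cre control libraries, and did not pass (adjusted p = 0.477). It had 142.6 and 402.3 CPM in Tgfbr1/2 DKO libraries, against 449.1 and 116.1 CPM in Tcf21-Cre control libraries.

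Of 7 versican proteases, Adamts9 fell in the Smad2/3 DKO, with 141.8 and 148.1 CPM in DKO libraries, against 277.7 and 222.0 CPM in control libraries (log2 −0.85 ± 0.17, adjusted p = 0.0390). The call was lost without Postn-Cre control HK3, Smad2/3 DKO HK15 or Smad2/3 DKO HK16 and with all 8 libraries in the fit, with adjusted p of up to 0.208 without a library. Adamts1 had 1103 and 1138 CPM in Smad2/3 DKO libraries, against 1650 and 1520 CPM in Postn-Cre control libraries (adjusted p = 0.0855), and Adamts5 had 297.0 and 329.7 CPM, against 481.7 and 402.5 CPM (0.129). The edgeR call was thus 1 of 7, against 0.844% of all tested genes called lower. DESeq2 called 4 of the 7 lower, and it called 769 genes in all, 40.8% of them higher. In the Tgfbr1/2 comparison none of the 7 was called, at an unadjusted p below 0.05 or by DESeq2 either.

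Among the pathway lists, versican-binding glycoproteins had the largest median log2 fold changes in size, −1.14 (Smad2/3) and 0.38 (Tgfbr1/2). In the Smad2/3 DKO, 3 of 6 tested fell, against 0.844% of all tested genes called lower. The list did not fall as a whole. Fbn2 was lower without passing (log2 −1.19, adjusted p = 0.199), Fbln2 was at −0.03, and Fbln1 was higher without passing (0.43, 0.34). Fbn1, the fibrillin-1 gene, had 1931 and 1451 CPM in Smad2/3 DKO libraries, against 4158 and 3581 CPM in Postn-Cre control libraries (log2 −1.25 ± 0.17, adjusted p = 0.00445). Tnc, the tenascin-C gene, had 144.0 and 168.9 CPM in Smad2/3 DKO libraries, against 317.7 and 387.9 CPM in Postn-Cre control libraries (−1.23 ± 0.17, 0.00494). Fn1, the fibronectin gene, had 1435 and 1291 CPM in Smad2/3 DKO libraries, against 2716 and 2851 CPM in Postn-Cre control libraries (−1.09 ± 0.14, 0.00370), a call lost only with all 8 libraries in the fit among the alternatives run. In the Tgfbr1/2 DKO, 1 of 6 rose, against 2.64% of all tested genes called higher. This was Tnc, with 1164 and 1310 CPM in DKO libraries, against 182.7 and 267.3 CPM in control libraries (2.54 ± 0.27, 0.00125). Fbn1 had 5067 and 5638 CPM in Tgfbr1/2 DKO libraries, against 4031 and 4456 CPM in Tcf21-Cre control libraries (0.378), and Fn1 had 2172 and 2842 CPM, against 1802 and 4432 CPM (0.824). The difference between the effects was −3.77 ± 0.34 for Tnc (adjusted p = 0.00041) and −1.68 ± 0.31 for Fbn1 (0.0254). The call for Tnc stayed without any of the 8 libraries, and that for Fbn1 was lost without Postn-Cre control HK3, Smad2/3 DKO HK16 or Tgfbr1/2 DKO HK4, with adjusted p of up to 0.1004.

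Of 18 tested genes of chondroitin sulfate synthesis, which builds the side chains of versican, Chst11 fell in the Smad2/3 DKO. This sulfotransferase gene had 33.8 and 28.7 CPM in Smad2/3 DKO libraries, against 70.5 and 83.7 CPM in Postn-Cre control libraries (log2 −1.36 ± 0.22, adjusted p = 0.0122, and 0.0503 without Smad2/3 DKO HK16). None of the 18 was called in the Tgfbr1/2 comparison (1 at an unadjusted p below 0.05, 1 by DESeq2). The difference between the effects was −1.71 ± 0.32 for Chst11 (0.0257) and −2.02 ± 0.40 for Csgalnact1 (0.0341), a gene that starts the chain. Csgalnact1 had 10.7 and 9.03 CPM in Smad2/3 DKO libraries, against 27.3 and 16.8 CPM in Postn-Cre control libraries. It had 51.4 and 56.2 CPM in Tgfbr1/2 DKO libraries, against 29.2 and 36.7 CPM in Tcf21-Cre control libraries. The calls for Chst11 and Csgalnact1 were lost when single libraries were left out, in 5 and 7 of 8 cases, with adjusted p of up to 0.132. Chsy1, a chain polymerase, was the most abundant, with 86.4 and 59.9 CPM in Smad2/3 DKO libraries, against 77.3 and 80.0 CPM in Postn-Cre control libraries. Chpf, its partner, had 10.9 and 9.31 CPM in Smad2/3 DKO libraries, against 12.2 and 10.7 CPM in Postn-Cre control libraries.

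The median log2 fold changes of the 7 lists in the Smad2/3 comparison ran from −1.14 for the versican-binding glycoproteins to −0.09 for the precursor enzymes, against 0.01 over all tested genes. In the Tgfbr1/2 comparison they ran from 0.00 for the linkers to 0.38 for the versican-binding glycoproteins, against −0.01 over all tested genes.

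**Figure D5:**
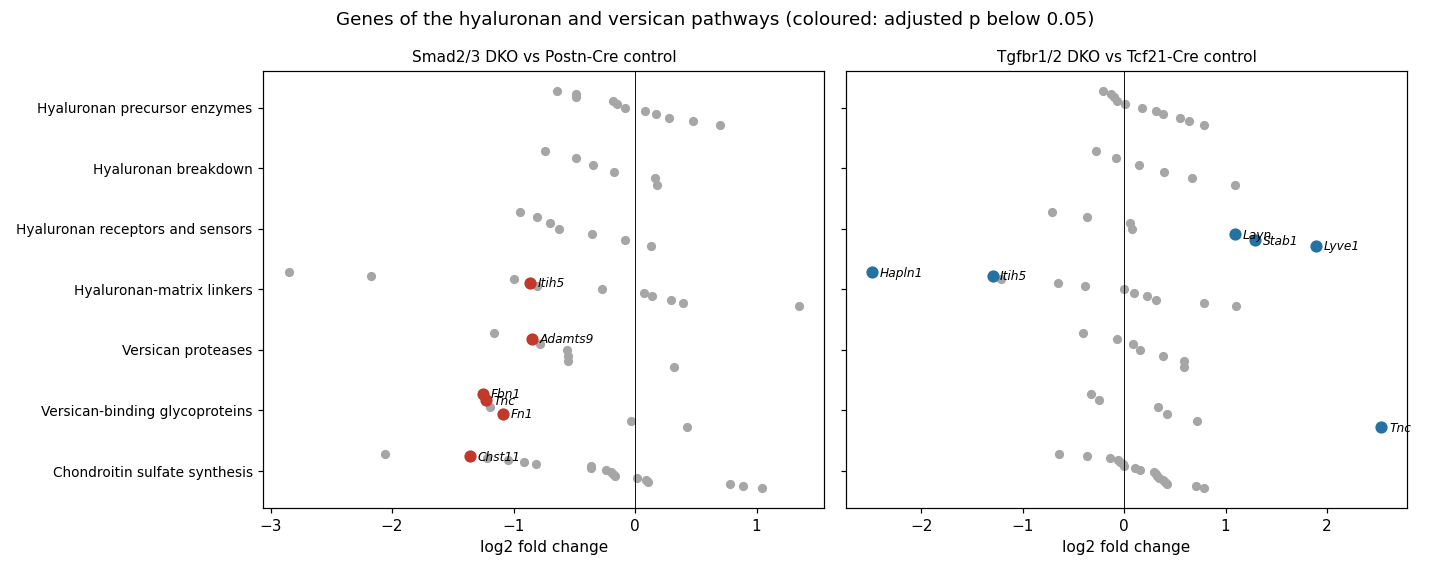
Log2 fold change (horizontal axes) of each tested gene in 7 lists around hyaluronan and versican (rows), with the Smad2/3 DKO comparison on the left and the Tgfbr1/2 DKO comparison on the right. Coloured and named points have an adjusted p below 0.05. Tnc lies at −1.23 on the left and 2.54 on the right, and Itih5 lies left of 0 in both.

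In the comparison of the controls, 9 of 11 precursor enzyme genes were called higher in the Postn-Cre control and Hk1 was called lower. Of all 17770 tested genes, 2834 were called higher and 3359 lower, or 34.9% in either direction. Gfpt2 had 2902 and 2597 CPM in Postn-Cre control libraries, against 1180 and 753.9 CPM in Tcf21-Cre control libraries (log2 1.81 ± 0.27, adjusted p = 0.000612). Ugdh differed by 1.42 ± 0.25 (0.00149), Pgm3 by 1.72 ± 0.24 (0.000391), Hk2 by 1.61 ± 0.43 (0.0139), Pgm1 by 1.06 ± 0.23 (0.00453) and Uap1 by 1.04 ± 0.23 (0.00467). Pgm2 was lower without passing (−1.84 ± 0.81, 0.0990), and both Pgm1 and Pgm2 are named here by the deposited symbols. Ugp2 (0.81), Gfpt1 (0.71), Gnpnat1 (0.98) and Hk1 (−0.82) were called too, but all 4 calls were lost with the GC trend removed, and Hk1 then stood at 0.25. Outside this list, Tmem2 (2.23), Layn (1.90), Ptx3 (1.99), Itih2 (0.81), Adamts9 (2.21), Adamts1 (1.15), Tnc (0.93), Xylt1 (1.88), Chst11 (1.30) and Csgalnact2 (0.67) were higher in the Postn-Cre control, of which Itih2 and Csgalnact2 were no longer called with the GC trend removed. Hexa (−2.11), Adamts15 (−5.24), Chpf (−2.66) and Chst12 (−3.94) were lower, and kept their calls with the GC trend removed. Gusb (−0.83), Fbln1 (−0.77), Fbln2 (−0.83), Xylt2 (−3.25), B3gat3 (−3.19) and Chpf2 (−1.26) were lower and lost their calls with it. Fbln1, Fbln2 and Chpf2 then had values above 0. Of the genes that kept their calls with the GC trend removed, Hk2, Ptx3, Adamts1 and Tnc lost them when some single libraries were left out, with adjusted p of up to 0.102. The share of calls that were higher in the Postn-Cre control was 45.8%, and it was 29.6% with library totals alone and 62.2% with the GC trend removed.

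The genes with profiles most like those of the members were named for the 5 members with a mean of at least 10 CPM over the 8 libraries. Likeness was the root mean square (RMS) difference of log2(CPM + 1) values, each gene centred on its own mean over the 8 libraries, among 7801 other genes, so that the step between the runs weighs heavily in it. Nearest to Vcan were Memo1 (RMS difference 0.112), Fam98a (0.159) and Layn (0.171), against a median of 0.711 over all candidates. Nearest to Has2 were Tmem2 (0.130), Slc16a1 (0.147) and Abl2 (0.166), against a median of 0.949. Nearest to Cd44 were Abcb1b (0.171), Atp10a (0.174) and Pgm3 (0.182), against a median of 0.781. Tnfaip6 had Psph (0.230), Slc3a2 (0.240) and Trmt10a (0.242) nearest to it, and Has1 had Thbd (0.201), Tmem11 (0.208) and Bcl10 (0.222), against medians of 0.786 and 0.628. Layn, Tmem2 and Pgm3 also belong to the pathway lists above. Among the 10 pairs of these 5 members, the RMS difference ran from 0.291 for Vcan and Cd44 to 0.995 for Has1 and Has2. Has3, Hyal1 and Hyal2 were not compared in this way.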

How the data were processed

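Total RNA of sorted GFP-positive cells was amplified (NuGEN Ovation) and made into libraries with Nextera XT, per the labels' protocols. The authors deposited expected counts per gene, called raw in the file headers, of which 12.5% of the positive values were whole. The submitters' processing notes name mm10 as the genome build, and which aligner or counting tool was run is not given in the sources used here. Also deposited by the authors were log2 values that are floored and centred on each gene, a log2 fold change between group means of these, a fold ratio, and a fold score with a sign (all per the file headers). Groups follow the titles of the samples.

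Expected counts were rounded, entries sharing a symbol were summed (278 symbols), and levels were computed as CPM of the library total. GENCODE vM21 on GRCm38, which is mm10, gave exon lengths and gene positions, with 95.3% of the identifiers found in it. Each knockout comparison was fitted on its own 4 libraries, and the difference between effects and the comparison of controls on all 8, in R 4.3.3. The robust quasi-likelihood F test of edgeR 4.0.16 was used after filterByExpr and TMM normalization, two-sided, with Benjamini-Hochberg adjustment over all tested genes and a threshold of 0.05. Library totals of 21477646 to 32594474 counts make 3 counts correspond to 0.092 to 0.140 CPM, which covers counting error only. Intervals are 95%. GC content is that of the longest GENCODE transcript.

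Alternatives were other scalings, no low-count filter, DESeq2 1.42.0, no robust estimation, entries kept apart, all 8 libraries in the fit and each library left out. Removal of the GC trend (loess, span 0.5, as an offset per gene and library) and the alternatives for list genes were chosen after seeing the data. The members and lists were chosen with earlier results of these data known. All 8 members are named, as are list genes past the threshold, the 2 most abundant of each list (1 of these is not reported here), and the 3 nearest profiles of members with a mean of at least 10 CPM.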

Additional observations from a re-analysis of the deposited data

Results flagged for a closer look

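In 7 genes the Smad2/3 effect and the Tgfbr1/2 effect differed in a way that merits a second look. For Vcan and Cd44 both DKO libraries lay below both controls in the Smad2/3 comparison and above both controls in the Tgfbr1/2 comparison. Groups without overlap are common here, at 44.4% (Smad2/3) and 51.2% (Tgfbr1/2) of all tested genes in either direction. The share of all genes without overlap in opposite directions was not computed. The differences between the effects, tested as an interaction with edgeR, were −1.33 (adjusted p = 0.0633) for Vcan and −1.35 (adjusted p = 0.0577) for Cd44 on the log2 scale, which did not pass. For Tnc (−3.77), Csgalnact1 (−2.02), Layn (−1.80), Chst11 (−1.71) and Fbn1 (−1.68) the tested difference between the effects passed, with adjusted p of 0.00041, 0.0341, 0.0118, 0.0257 and 0.0254 in that order. The calls of Csgalnact1, Chst11 and Fbn1 were lost when some single libraries were left out, as given above. Run and driver differ with the targeted genes.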

How the results depend on the processing

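No paired analysis was possible because the groups compared share fewer than 2 library numbers. With no filter on low counts, the genes called were 819 (Smad2/3), 1233 (Tgfbr1/2) and 1194 (difference between effects), of which 3, 1 and 4 were members. With DESeq2 they were 769, 1134 and 1146, of which 2, 1 and 3 were members. With all 8 libraries in the fit, 299 genes were called for Tgfbr1/2. With the GC trend removed, 1 member was called for Tgfbr1/2 and 2 for the difference. Leaving out 1 library gave 105 to 297 genes and 0 to 2 members for Smad2/3, 271 to 484 and 0 to 1 for Tgfbr1/2, 89 to 302 and 0 to 1 for the difference, and 3645 to 6500 genes for the controls. With library totals alone the difference for Has3 was 0.077 and the control difference for Has1 −0.19, and the median of all genes moved to 0.16 for the difference (0.01 with TMM) and to −0.41 for the controls (−0.12 with TMM). With the GC trend removed the control differences of Hk1 (0.25), Fbln1 (0.071), Fbln2 (0.32) and Chpf2 (0.050) turned positive. Leaving out 1 library turned the sign of uncalled values. The ranges were −0.57 to 0.24 for Has1 (Smad2/3), −0.74 to 0.058 for Has3 (Smad2/3), −0.12 to 0.69 for Hyal2 (Tgfbr1/2), −0.53 to 0.67 for Has2 (Tgfbr1/2), −0.37 to 1.13 for Tnfaip6 (Tgfbr1/2), −0.15 to 1.01 for Has1 (Tgfbr1/2), −0.53 to 0.27 for Has3 (the difference), −1.204 to 0.015 for Has2 (the difference) and −0.38 to 0.45 for Has1 (the controls). The cause of these changes was not tested. With 2 libraries a group, changes of a few percent or of genes as low as Hyal2 in the Postn-Cre control are not resolved. Larger differences also went uncalled, such as Cd44 at 1.9 times the control level in the Tgfbr1/2 DKO (adjusted p = 0.0572 by edgeR). The 95% interval of Tnfaip6 in that comparison ran from −1.29 to 2.12 on the log2 scale. Genes without a call are thus not shown to be unchanged.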
